A study of Sus scrofa with 48 samples.

Results

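Gluconeogenesis builds glucose from lactate, amino acids and glycerol, and liver and kidney are the organs known for releasing that glucose into blood. Pyruvate carboxylase (PC) makes oxaloacetate from pyruvate in mitochondria, PCK1 turns oxaloacetate into phosphoenolpyruvate, fructose bisphosphatase FBP1 bypasses a step of glycolysis that does not run backwards, G6PC1 frees glucose from its phosphate, and the transporter SLC2A2 (GLUT2) carries glucose across the membranes of hepatocytes and of kidney tubule cells. These 5 genes were looked up by the accession printed with each probe of the porcine array. PC, FBP1 and SLC2A2 had 1 probe each, so that 3 of 43603 probes are known to belong to the group. PCK1 and G6PC1 matched no probe and were not analysed here. Only 2628 probes could be named, and the 40975 without a name may hold others of the group.

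RNA of liver, kidney and gluteus muscle was measured in 16 F2 Large White pigs, with 1 array per pig and tissue, or 48 arrays. The F2 E line (8 pigs) descended in the male line from F0 boars whose standard diet was supplemented with methylating micronutrients, namely folate, betaine, choline, methionine and the vitamins B12 and B6. The F2 C line (8 pigs) descended from F0 boars on the standard diet alone. Each line held 4 males and 4 females. The males were castrated, and all F2 pigs themselves ate standard diets. Pigs are named by line and by the rank of their label number within the line, C1 to C8 and E1 to E8, of which 1 to 4 form a lower and 5 to 8 an upper series of numbers. The labels give no age at sampling. Each line goes back to few founder boars, so the founders' diet and shared ancestry cannot be told apart.

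The tissue labels were checked against marker genes. All 6 measured hepatocyte markers (ALB, TTR, APOA1, SERPINA1, AMBP and TF) had higher signals on every liver array than on any other array. The same held in muscle for all 8 measured skeletal muscle markers, among them CKM and MYH1. In kidney, 5 of 6 measured proximal tubule markers, among them SLC34A1, SLC22A8 and DPEP1, and both measured markers of other segments (SLC12A1 and CALB1) lay above all arrays of the other tissues. SLC22A6 was highest in kidney on average, with a mean log2 signal of 9.60 against 7.55 in liver, but its arrays overlapped. The markers thus fit the tissue labels.

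The kidney arrays of pigs E1 and E3 stood apart. Their median signal over all probes was 48, against 100 to 240.5 on the other kidney arrays, and their median correlation with the other kidney arrays was 0.954 and 0.953. They also had the lowest summed log2 signals of the markers of other kidney segments, 12.16 and 12.79 against 13.56 or more on the other kidney arrays, and E1 had the highest sum of proximal tubule markers, 17.38. A weaker array and a piece of another part of the kidney cannot be told apart here. In liver the median signal ranged from 88 to 167 and in muscle from 48 to 88.5. The muscle array of pig E7 also stood apart, with the lowest median signal of its tissue, 48, and a median correlation of 0.959 with the other muscle arrays, against 0.975 or more for the rest. No spot was saturated. Each slide holds 4 arrays of 1 tissue, and each tissue spans 4 slides. All kidney arrays, and no others, were scanned on the last of 3 days, so that kidney and scan day cannot be told apart. Several results on kidney are therefore also given without these 2 arrays, called the dim arrays below. In liver, the FBP1 spot of pig C5 was marked as an outlier by the scanner software and left out, which leaves 15 liver values for FBP1.

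PC was brighter in liver and kidney than in muscle in all pigs, and its liver and kidney levels overlapped widely. On the log2 scale, quantile-normalized over all 48 arrays, the PC signal in liver ran from 12.96 over a median of 13.83 to 14.57, with a mean of 13.88 ± 0.49 (SD, n = 16). In kidney it ran from 12.48 over a median of 13.48 to 14.80, with a mean of 13.47 ± 0.59 (SD, n = 16). In muscle the range was 10.53 to 12.11 around a median of 11.22, with a mean of 11.28 ± 0.44 (SD, n = 16). Every liver array and every kidney array thus lay above every muscle array. The highest kidney value belonged to pig E1, one of the 2 dim arrays, and the second highest to pig E3, the other one.

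Within pigs, PC was higher in liver than in muscle in 16 of 16 pigs, by 1.30 to 3.66 on the log2 scale. The fitted difference was 2.60 (SE 0.17), or 6.04-fold with a 95% confidence interval of 4.75 to 7.69 (limma, adjusted p = 8.77e-19). PC in kidney exceeded muscle in 16 of 16 pigs as well, by 4.55-fold (interval 3.58 to 5.79, adjusted p = 4.47e-16), and the log2 difference without the dim arrays was 2.03. With each tissue normalized on its own the log2 differences were 3.52 in liver and 3.48 in kidney over muscle. These samples are whole tissue, in which fewer cells of a type and less RNA per cell cannot be told apart.

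Between the glucose-releasing organs the PC difference was small. PC was higher in liver than in kidney in 12 of 16 pigs and lower in 4, with differences from -0.68 to 1.37 around a median of 0.53. The fitted difference was 0.41 (SE 0.17), or 1.33-fold with an interval of 1.04 to 1.69 (limma, adjusted p = 0.0321). With slide in place of pig as a random block it did not pass (interval 0.95 to 1.85, adjusted p = 0.136). Pigs E1 and E3, whose kidney arrays were dim, were the ones with the lowest differences, -0.68 and -0.45. Without those kidney arrays the difference was 0.57 (adjusted p = 0.00166). It depended on how arrays of different tissues were put on one scale: it was 0.62 and 0.68 when each array was centred on its 75th percentile (median signal and processed signal, adjusted p = 0.00290 and 0.00200), and 0.04 (adjusted p = 0.828) when each tissue was normalized on its own. Over all probes the median of liver over kidney was -0.02 as reported, 0.38 and 0.03 with the percentile scalings, and -0.18 with each tissue normalized on its own. The call was also lost without any 1 of the pigs C2, C5, C8, E2, E5 and E7, where the difference was 0.35 to 0.39 and the adjusted p 0.0542 to 0.0752.

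**Figure D1:**
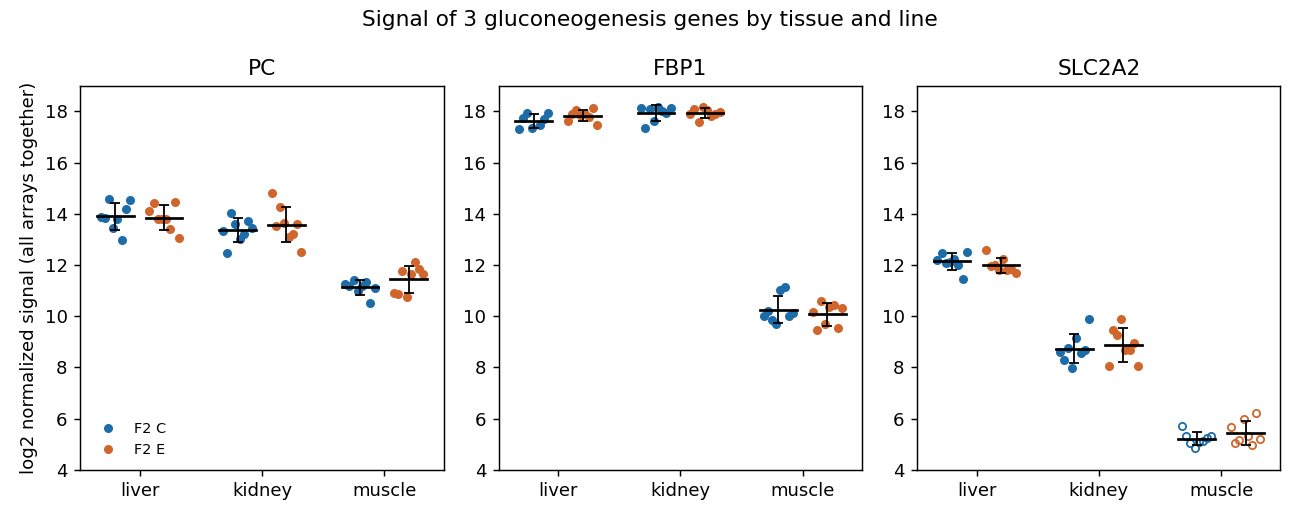
Signal of PC, FBP1 and SLC2A2 in liver, kidney and muscle. The vertical axis is the log2 signal after quantile normalization over all 48 arrays, each point is 1 pig (blue F2 C, orange F2 E), open points are not well above background, and bars give the mean ± SD of a line. FBP1 sat between 17.30 and 18.19 in liver and kidney and at or below 11.16 in muscle, and SLC2A2 fell from liver over kidney to muscle.

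FBP1 was bright in liver and kidney and far dimmer in muscle. In liver its log2 signal ran from 17.30 over a median of 17.79 to 18.13, with a mean of 17.74 ± 0.26 (SD, n = 15). In kidney it ran from 17.34 over a median of 18.00 to 18.19, with a mean of 17.94 ± 0.24 (SD, n = 16). In muscle it ran from 9.45 over a median of 10.14 to 11.16, with a mean of 10.17 ± 0.49 (SD, n = 16). FBP1 was well above background on all arrays of the 3 tissues, muscle included, where its unnormalized median signal lay between 187 and 1709. The males C5 and C6 had the highest FBP1 signals in muscle, 11.03 and 11.16, and all other pigs lay at or below 10.59.

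FBP1 in liver exceeded muscle 190-fold (interval 160 to 226, adjusted p = 7.29e-44) and was higher in 15 of 15 pigs with both values. Kidney over muscle was 219-fold (interval 185 to 259, adjusted p = 1.29e-44), in 16 of 16 pigs. On the log2 scale these differences were 7.57 (SE 0.12) and 7.77 (SE 0.12), and no pig fell under 6.31 in the former or 6.85 in the latter. Under every scaling tried both stayed between 7.13 and 8.73.

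The order of FBP1 in liver and kidney was not settled. FBP1 was lower in liver than in kidney in 12 of 15 pigs and higher in 3 (pigs C2, E3 and E7), with differences from -0.84 to 0.48. Among kidney arrays that of pig C2 was lowest in FBP1 (17.34) and in PC (12.48). It also had the lowest summed log2 signal of proximal tubule markers, 16.18, and the part of these markers in the FBP1 difference was not tested. The fitted difference was -0.20 (SE 0.12, interval -0.45 to 0.05, limma, adjusted p = 0.145), less than the spread between pigs of either tissue, and -0.23 (adjusted p = 0.0978) without the dim arrays. Its direction turned with the scaling: liver was higher by 0.68 (adjusted p = 1.54e-05) and 0.71 (adjusted p = 1.39e-05) with arrays centred on the 75th percentile of the median or the processed signal, and by 0.13 (adjusted p = 0.343) with each tissue normalized on its own.

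SLC2A2 separated all 3 tissues, with liver highest, kidney between and muscle lowest. In liver its log2 signal ran from 11.46 over a median of 12.04 to 12.57, with a mean of 12.07 ± 0.31 (SD, n = 16). In kidney it ran from 7.99 over a median of 8.70 to 9.88, with a mean of 8.81 ± 0.59 (SD, n = 16). The lowest liver pig, C7, was thus still above the highest kidney pig, E4. In muscle none of the 16 arrays had SLC2A2 well above background (unnormalized signals of 25.5 to 55), so muscle has only an upper bound.

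Liver exceeded kidney in SLC2A2 by 9.56-fold (interval 7.74 to 11.8, limma, adjusted p = 1.18e-24), a log2 difference of 3.26 (SE 0.15). SLC2A2 was higher in the liver of 16 of 16 pigs, by 1.94 in pig E4 up to 4.53 in pig E1. Under the other scalings and without the dim kidney arrays the difference stayed between 2.68 and 3.28. For a probe below background on all arrays of a tissue, the fold is given as at least the ratio of the bright tissue's mean to a floor, the mean over the dim tissue's arrays of the lowest signal well above background on that array or the probe's own signal where higher. SLC2A2 was at least 65.9-fold higher in liver than in muscle and at least 6.90-fold higher in kidney than in muscle. The limma fits, which use the muscle values as they are, gave an adjusted p of 2.14e-38 and 5.04e-26, and the bounds themselves carry no test. These bounds, and those of other genes below, hold for the reported scaling only: with arrays centred on the percentile of the median signal the fitted log2 differences of SLC2A2 over muscle were 6.02 in liver and 2.74 in kidney, slightly under the bounds. As a glucose carrier among the solute carriers of the array it thus followed the order liver, kidney, muscle.

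These tissue calls stand against a large background. In liver against kidney, 2 of 3 members passed an adjusted p of 0.05, and 70.0% of the 34501 tested probes did so, 33.5% with liver higher. With slide as a random block 1 of 3 passed, beside 59.9% of all probes. In liver against muscle 3 of 3 passed, beside 70.6% of all probes, 35.6% with liver higher. In kidney against muscle 3 of 3 passed, beside 75.1% of all probes, 39.9% with kidney higher. Liver over muscle and kidney over muscle kept 3 of 3 with slide as a random block, beside 61.8% and 66.9% of all probes. A call between tissues is thus common on this array, and a count of 3 probes says little beside it.

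The study compared F2 E with F2 C to ask whether feeding of the founder boars shows in grandoffspring. No member passed the test between the lines in any tissue. By limma, 0 of 3 members passed in liver, 0 of 3 in kidney and 0 of 2 in muscle, where SLC2A2 was not measured. Over all probes 27 of 28823 passed in liver (0.0937%), 4 of 33664 in kidney (0.0119%) and 197 of 25625 in muscle (0.769%). The muscle count is unsteady: it was 5 with slide as a random block, where each slide holds a single line, 505 with number series as a block, and 88 to 196 without single pigs. At an unadjusted p under 0.05 the array-wide counts were 2389, 1310 and 4136, with 0 members among them. The methods' t-test, at p under 0.01 and a log2 difference over 1, called 63, 53 and 85 probes, and the same t-test at an adjusted p under 0.05 without the log2 cut called 11, 5 and 126, with 0 members each time.

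For the lines, each tissue was normalized on its own, and the values below are on that log2 scale. PC in liver ran from 12.98 over a median of 13.91 to 14.68 in F2 C and from 13.06 over a median of 13.86 to 14.55 in F2 E. In kidney PC ran from 12.98 over 13.83 to 14.40 in F2 C and from 13.01 over 13.99 to 15.09 in F2 E, and in muscle from 9.59 over 10.32 to 10.59 in F2 C and from 9.84 over 10.83 to 11.31 in F2 E. The lines overlapped in all 3 tissues. In muscle the 5 highest pigs (E8, E5, E3, E7 and E6) were F2 E. The other F2 E pigs, E1, E2 and E4, at 9.84 to 9.99, lay below every F2 C pig except C7 (9.59). The array of E7 stood apart, as said, and its unnormalized PC signal of 919 was low. Pigs E5 to E8 are the upper number series and share 1 slide, whose mean was 10.996, against 10.184 on the other F2 E slide and 10.155 and 10.349 on the F2 C slides. Adipocyte markers in muscle (6 of 6 measured, FABP4 the most abundant) split the F2 E pigs alike: their summed log2 signal was 15.52 to 16.46 in those 5 pigs and at most 15.17 in E1, E2 and E4, while F2 C pigs ran from 14.83 to 15.72, with means of 15.29 in F2 C and 15.53 in F2 E. The part of these markers in the PC values of muscle was not tested, and slide and number series cannot be told apart there within a line.

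The PC difference of F2 E over F2 C was -0.05 in liver (SE 0.25, interval -0.56 to 0.47, exact permutation p = 0.860, adjusted p = 0.976). It was 0.20 in kidney (SE 0.26, interval -0.33 to 0.74, exact permutation p = 0.471, adjusted p = 1.00) and 0.34 in muscle (SE 0.21, interval -0.10 to 0.78, exact permutation p = 0.161, adjusted p = 0.439). The kidney value rested on pigs E1 and E3, which stood apart in brightness and in segment markers: without them it was -0.08, and without single pigs 0.048 to 0.35. In liver, where 2 slides hold both lines, the PC difference was 0.11 with slide as a block, 0.45 within the slide of males and -0.22 within the slide of females, so it had no steady direction.

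FBP1 in liver ran from 17.55 over a median of 17.92 to 18.14 in F2 C (7 pigs) and from 17.70 over 18.08 to 18.30 in F2 E. In kidney it ran from 17.32 over 17.93 to 18.05 in F2 C and from 17.50 over 17.84 to 18.03 in F2 E, and in muscle from 8.72 over 9.12 to 10.29 in F2 C and from 8.49 over 9.30 to 9.66 in F2 E. The lines overlapped in each tissue, and the lowest liver values were those of pigs C1 and C4. The FBP1 difference was 0.18 in liver (SE 0.12, interval -0.07 to 0.43, exact permutation p = 0.134, adjusted p = 0.742), 0.24 with slide as a block, and 0.21 and 0.27 within the slides that hold both lines, but 0.077 with arrays centred on the percentile of the median signal and 0.11 with marked spots removed before normalization. It was -0.00028 in kidney (SE 0.12, interval -0.25 to 0.25, exact permutation p = 0.998), 0.06 without the dim arrays, and -0.20 in muscle (SE 0.24, interval -0.70 to 0.29, exact permutation p = 0.444), which shrank to -0.067 without pig C6.

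SLC2A2 in liver ran from 11.45 over a median of 12.16 to 12.53 in F2 C and from 11.67 over 11.90 to 12.58 in F2 E. In kidney it ran from 8.54 over 9.23 to 10.46 in F2 C and from 8.58 over 9.41 to 10.46 in F2 E. The lines shared nearly the same range in kidney, and pig C8 matched pig E4 at the top. The SLC2A2 difference was -0.15 in liver (SE 0.15, interval -0.47 to 0.17, exact permutation p = 0.364, adjusted p = 0.839), -0.13 with slide as a block, -0.07 and -0.18 within the slides of males and of females, and -0.25 to -0.091 without single pigs. In kidney it was 0.14 (SE 0.29, interval -0.47 to 0.75, exact permutation p = 0.652, adjusted p = 1.00), and 0.22 without the dim arrays. Leaving out single pigs gave kidney values from -0.0027 (without pig E4) to 0.31. Hepatocyte markers (6 of 10 measured, TTR the most abundant) had a summed log2 signal of 13.2 to 16.2 on kidney arrays, with means of 13.87 in F2 C and 14.53 in F2 E, and their part in the kidney values was not tested. Kidney and muscle slides each held a single line, so that a slide block cannot move the line difference there, and with slide as a random block the adjusted p was 1.00 for these genes in kidney, and 0.865 for PC and 0.932 for FBP1 in muscle.

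The difference between the lines was also compared between tissues and between the sexes. For the line difference in liver minus that in kidney, limma called 0 of 3 members and 7 probes (0.0203% of 34501). No muscle array had SLC2A2 well above background, so against muscle only PC and FBP1 could be tested. PC and FBP1 were not called in liver minus muscle, beside 42 probes (0.122%), nor in kidney minus muscle, beside 16 probes (0.0464%). The probes at an unadjusted p under 0.05 were 786, 2579 and 1965 in these 3 comparisons. With slide as a random block the probes called were 3, 8 and 3. The member farthest from 0 that was measured in both tissues was FBP1 in liver minus muscle, with 0.39 (SE 0.25, adjusted p = 0.797). Males minus females gave 0 members called in liver, kidney and muscle, beside 0.115%, 0.0921% and 0.117% of all probes. FBP1 in muscle, 0.40 higher in males (SE 0.22, adjusted p = 0.999, exact permutation p = 0.124), had the widest of these differences, and its sexes overlapped. For the interaction of line and sex limma called 0 probes in each tissue (0%), with 506, 884 and 886 probes at an unadjusted p under 0.05.

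PC and FBP1 rose and fell together over livers, though the relation missed the adjusted threshold. Over the 15 livers with both values, Pearson's r was 0.62 (permutation p = 0.0149) and Spearman's rho 0.55 (permutation p = 0.0352). Adjusted over the 6 gene pairs tested in liver and kidney these were 0.0895 and 0.109. Pigs C3, C8, E2 and E7 were high in both genes, and pigs C6 and E8 low in both. Without pigs E8 and C6, the farthest from the median of PC, r was 0.48 (permutation p = 0.0975), so part of the relation rests on them.

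Within lines the relation of PC and FBP1 in liver was of like size. It was 0.76 in F2 C (7 pigs, exact permutation p = 0.0522) and 0.64 in F2 E (8 pigs, exact permutation p = 0.0849). With line means subtracted r was 0.71 (adjusted p = 0.0376), and with slide means subtracted 0.75 (adjusted p = 0.0278). No slide holds both number series, and r was 0.50 in the lower series (8 pigs, exact permutation p = 0.197) and 0.84 in the upper (7 pigs, exact permutation p = 0.0240). With arrays centred on the 75th percentile instead of quantile-normalized, r was 0.44 for the median signal and 0.23 for the processed signal, neither past the threshold (adjusted p = 0.269 and 0.555).

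**Figure D2:**
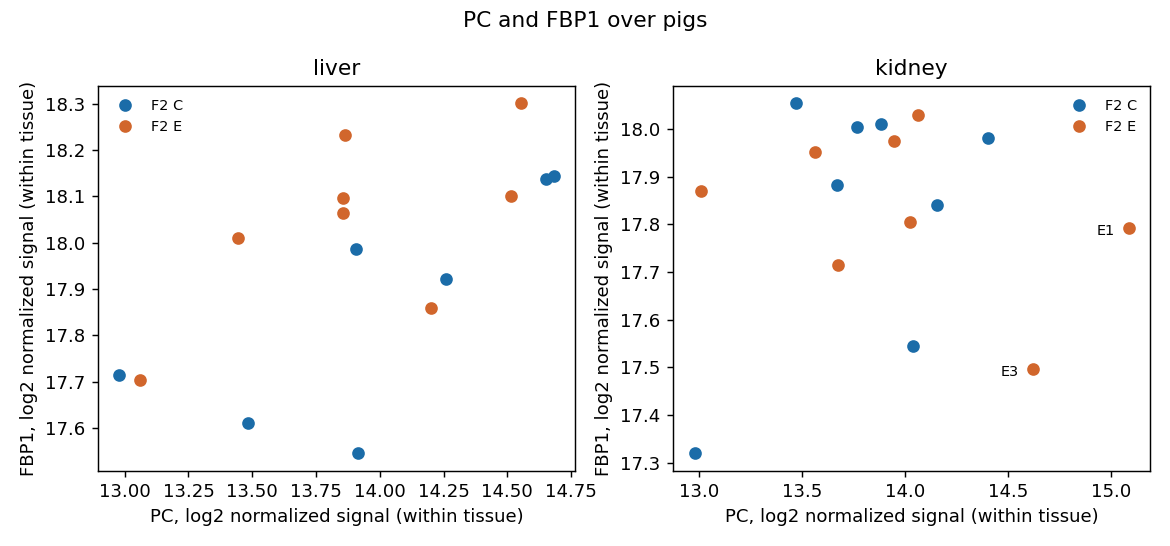
PC against FBP1 over pigs in liver and in kidney. Both axes are log2 signals normalized within the tissue, and each point is 1 pig (blue F2 C, orange F2 E). In liver the points climb together (r = 0.62 over 15 pigs), and in kidney they do not (r = 0.04 over 16 pigs), with the dim arrays of pigs E1 and E3 at the right, but the contrast rests on the scaling, since percentile scaling of the median signal gave 0.44 in liver and 0.89 in kidney.

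In kidney the relation of PC and FBP1 depended on the scaling. As reported r was 0.04 (permutation p = 0.874) and rho -0.11 (permutation p = 0.681), and without pigs E1 and E3 r was 0.37 (permutation p = 0.189). Leaving out pigs C2 and E1, the farthest from the median of PC, gave -0.37. With arrays centred on the 75th percentile r was 0.89 for the median signal (adjusted p = 0.00018) and 0.83 for the processed signal (adjusted p = 0.00030). Kidney arrays differed most in their overall signal, and the part of that in the relation was not tested.

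FBP1 and SLC2A2 had an r of 0.44 over 16 kidneys (permutation p = 0.0854, adjusted p = 0.256) and a rho of 0.53 (permutation p = 0.0364, adjusted p = 0.109). Pig C4 was low in both genes, and pigs E4 and C8 high in both. Without the dim arrays r was 0.61 (permutation p = 0.0199, adjusted p = 0.0596) and rho 0.67 (permutation p = 0.0111, adjusted p = 0.0333). These adjusted values cover the 3 kidney pairs only, not the 6 pairs used otherwise, and there rho passed and r did not. Without pigs C2 and E3, the farthest from the median of FBP1, r was 0.66 (permutation p = 0.0110, adjusted p = 0.0657). It was 0.68 in F2 C (exact permutation p = 0.0702) and 0.17 in F2 E (exact permutation p = 0.690), and 0.46 and 0.49 in the lower and upper series. Processed signal centred on the percentile turned it to -0.20. The share of tubule segments in these bulk kidney samples was not measured. The summed log2 signal of the markers of other kidney segments (2 of 8 measured, SLC12A1 the most abundant) ran from 12.2 to 15.6, lowest in pigs E1 and E3. That of the proximal tubule markers (6 of 10 measured, SLC34A1 the most abundant) ran from 16.2 to 17.4. The part of these markers in the relation was not tested.

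The other pairs were weak. PC and SLC2A2 gave r = 0.22 in liver (permutation p = 0.410, rho 0.21, permutation p = 0.436) and 0.13 in kidney (permutation p = 0.644, rho 0.22, permutation p = 0.402). FBP1 and SLC2A2 in liver gave -0.02 (permutation p = 0.943, rho -0.02, permutation p = 0.945). None of these 3 pairs passed after adjustment over the 6 (adjusted p = 0.819, 0.943 and 0.943 for r), and leaving out the 2 farthest pigs gave 0.05, 0.36 and 0.10.

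A pig with much PC in its liver did not clearly have much in its kidney. Over 16 pigs r between the organs was 0.46 for PC (permutation p = 0.0748, rho 0.50, permutation p = 0.0507), with an adjusted p of 0.225 over the 3 genes compared this way. It was 0.39 in F2 C and 0.57 in F2 E (exact permutation p = 0.337 and 0.142), 0.24 and 0.72 in the lower and upper series (exact permutation p = 0.568 and 0.0410), 0.56 without pigs E1 and E3, and 0.29 without the farthest pigs E8 and C6. FBP1 gave 0.01 (permutation p = 0.969, rho 0.08, permutation p = 0.772) over 15 pigs, and -0.03 without its 2 farthest pigs.

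SLC2A2 gave r = -0.06 between liver and kidney over all pigs (permutation p = 0.823, rho -0.20, permutation p = 0.449) and 0.08 without pigs E1 and C7, the farthest from its liver median. The series split it. In the lower series r was -0.82 (8 pigs, exact permutation p = 0.0131, adjusted p = 0.0392) and in the upper series 0.71 (8 pigs, exact permutation p = 0.0466, adjusted p = 0.0699). The rho was -0.86 in the lower series (exact permutation p = 0.0107, adjusted p = 0.0321) and weaker, 0.43, in the upper (exact permutation p = 0.299, adjusted p = 0.449). In the lower series pig E1, whose kidney array was dim, had the highest liver and nearly the lowest kidney signal, and pig E4 had the lowest liver and the highest kidney signal. The difference between the series was not tested. Within lines r was 0.27 in F2 C and -0.34 in F2 E (exact permutation p = 0.480 and 0.420).

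Among the probes with a gene name, some followed each member closely from pig to pig. In liver, out of 1895 named probes, PC was most like CIDEB (r = 0.87 over 16 pigs), SAR1A (0.86) and HADHA (0.83), of which HADHA is an enzyme of mitochondrial fatty acid oxidation. FBP1 was most like LDHB, with 2 of its probes at 0.88, and ADIPOR2 (0.87 over 15 pigs). LDHB is a subunit of lactate dehydrogenase and ADIPOR2 a receptor for adiponectin. SLC2A2 was most like NQO1 (0.85), COPS2 (0.79) and CYP51 (0.74), the last an enzyme of cholesterol synthesis.

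In kidney, out of 1874 named probes, PC was most like BIN1 (r = 0.89), NR1H3 (0.89) and KRT2 (0.86), and without the dim arrays like NR1H3 (0.84) and XPNPEP2 (0.81), so that NR1H3, a nuclear receptor of lipid metabolism, was named both times. FBP1 was most like GSTO1 (0.91), SLC7A9 (0.89) and APTX (0.89), and without the dim arrays like RPL26L1, GSTO1 and B3GNT5 (0.89 each). SLC7A9 carries cystine and basic amino acids in the proximal tubule. SLC2A2 was most like PLIN2 (0.80), a protein of lipid droplets, FBXO32 (0.77) and EIF4A1 (0.75), and without the dim arrays like OGT (0.87), PKIA (0.85) and PLIN2 (0.85). Over all arrays, where tissue sets most of the pattern, PC was most like RPN1, RENBP and HNF4A (0.93 each), FBP1 like CYB5A, APOM and FTCD (0.99 each), and SLC2A2 like F9 (0.99), MTTP (0.98) and F2 (0.98). These r values are the highest of many and carry no test.

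Other genes around the pathway were listed by role, and 31 of 114 listed genes had a named probe. By limma 0 of them had a probe called between the lines in liver, kidney or muscle, and 0 were called by the methods' t-test or under the other alternatives tried. In these tissues 3 of 30, 0 of 27 and 5 of 26 tested genes had a probe at an unadjusted p under 0.05, beside 8.29%, 3.89% and 16.1% of all probes. A gene counted if any of its probes passed, and some genes have several, so these shares are not directly comparable. Medians of F2 E over F2 C in the measured enzymes and carriers of gluconeogenesis were -0.21 in liver (8 genes), -0.12 in kidney (7 genes) and -0.19 in muscle (7 genes), beside -0.02, -0.01 and -0.02 over all probes, with 0 genes passing. In liver the median was -0.10 with slide as a block and -0.092 and -0.084 within the slides that hold both lines. The tissue counts of the lists below stand beside 70.0% of all probes called in liver over kidney (33.5% higher), 70.6% in liver over muscle (35.6% higher) and 75.1% in kidney over muscle (39.9% higher).

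Of the 8 measured enzymes and carriers of gluconeogenesis (of 29 listed), 4 were higher in liver than in kidney, 3 lower and 1 not called, with a median of 0.65 beside -0.02 over all probes, and over all probes 70.0% were called and 33.5% higher. AQP9, the glycerol channel of hepatocytes, was higher in liver and well above background on 1 of 16 kidney arrays, so that no size is given for it. GOT1, an aspartate aminotransferase, was 2.48 higher on the log2 scale and GPI, which interconverts hexose phosphates, 1.48 higher. With arrays centred on the percentile, 1 gene was lower in liver instead of 3. TPI1 and GPI, which glycolysis also uses, were higher in muscle, at -5.78 and -5.38 in kidney over muscle, while AQP9 was at least 23.8-fold higher in liver than in muscle. In liver over muscle 3 of the 8 were higher and 5 lower, and in kidney over muscle 1 was higher and 5 lower.

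Of the genes of glycolysis, 6 of 21 had a probe. In liver over kidney 2 were higher and 3 lower, beside 70.0% of all probes called, and HK2 was below background in both. PFKFB1, which sets the level of a fructose bisphosphate that signals to glycolysis, was at least 79.5-fold higher in liver, PDK4, which switches off pyruvate dehydrogenase, was -1.91, and PFKM was -1.87. Muscle was far higher for most: ENO3 was lower in kidney than in muscle and well above background on 14 of 16 kidney arrays, so that no size is given for it, PFKFB1 was at least 260-fold lower in kidney than in muscle, and PFKM was -8.56 in liver over muscle. In liver over muscle 0 of the 6 were higher and 6 lower, and in kidney over muscle 1 was higher (PDK4) and 5 lower. For PDK4 in kidney over muscle its 2 other probes pointed the other way, and with arrays centred on the percentile 0 genes were higher. Without the dim kidney arrays, or with slide as a random block, 1 gene instead of 2 was higher in liver than in kidney.

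Of 13 measured regulators of gluconeogenesis (of 39 listed), 9 were higher in liver than in kidney and 2 lower, beside 33.5% of all probes higher and 70.0% called, with a median of 1.17. HSD11B1, which regenerates active glucocorticoid, was 6.04 higher, ADIPOR2 3.76 higher, and the hepatic transcription factor ONECUT1 at least 6.17-fold higher. PPARGC1A, a coactivator known from both organs, was among the lower, and 1 gene instead of 2 was lower with arrays centred on the percentile, without the dim kidney arrays or with slide as a random block. In liver over muscle 9 were higher and 3 lower, and in kidney over muscle 3 were higher and 6 lower: HSD11B1 was 5.15 higher in liver than in muscle, and ATF4 -5.09 in kidney over muscle. With each tissue normalized on its own 8 instead of 3 regulators were higher in kidney than in muscle, where 88.3% of the calls over all probes also had kidney higher.

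Glucose transport and glycogen genes were thinly covered, with 2 of 15. UGP2, which makes the glucose donor of glycogen, was 3.76 higher in liver than in kidney, and SLC5A1, the sodium-coupled glucose carrier, was -1.48 and thus higher in kidney, opposite in order to SLC2A2. SLC5A1 was at least 7.76-fold higher in kidney than in muscle. Of the genes of renal substrate supply, 2 of 10 were measured. GLUL, glutamine synthetase, was -0.51 in liver over kidney, though 2 of its 3 other probes pointed the other way, and -3.03 in liver over muscle.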

How the data were processed

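RNA was measured on 48 one-colour arrays of an Agilent porcine design. The deposited files are scanner output of Agilent Feature Extraction 10.5.1.1, in which the authors give each spot's intensity without normalization. The median signal of each spot was used, as in the study's methods. Spot signals were quantile-normalized on the linear scale (within a tissue for the lines, the sexes and covariation, over all arrays for tissues). Then log2 was taken, spots marked as outliers were set missing, and the spots of one probe were averaged. Kept probes had, in 50% or more of a group's arrays, a signal over 25 that the software marked as well above background.

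Of 43603 probes, 2628 were named through 1 gene each of a RefSeq table of assembly Sscrofa11.1, used for names only, and 40975 stayed without a name. A gene with several probes is given by the one well above background on most arrays, then the brightest. Lines were compared with lmFit and eBayes of limma 3.58.1 in R 4.3.3, two-sided, with Benjamini-Hochberg adjustment over all kept probes and an adjusted p of 0.05, tissues likewise with the pig as a random block (correlation 0.0301). Members also got an exact permutation p over pigs, and correlations a permutation p (100000 resamples from 10 pigs on, exact below) with scipy 1.17.1. The scripts were tested on simulated data. Arrays per group limit the precision.

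Text names the members, for each the 3 named probes most correlated with it, and of each list the 3 genes with the largest called difference of liver over kidney and of either organ over muscle, though not every gene so picked is given. The members and lists were chosen with earlier results of these data known. PPARGC1A and HK2 were singled out after their values were seen. Alternatives covered scaling, background correction, filter, marked spots, sex, replicate number, number series, slide and left-out arrays. The normexp correction on the mean signal could not be run, since the files hold no such column, and was run on the median signal.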

Additional observations from a re-analysis of the deposited data

How the results depend on the processing

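Members passed in no comparison of the lines under any alternative tried. SLC2A2 in liver over kidney and all members over muscle kept their direction and their side of the threshold under all alternatives. Alternatives that left out the dim arrays or subtracted slide means were chosen after seeing the data, as was normexp on the median signal. So was slide as a fixed block, within a slide or as a random block between tissues. The cause of the changes below was not tested. Signal over background limits SLC2A2 in muscle to a bound.

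Liver over kidney, PC was 0.043 with each tissue normalized on its own, where 1 of 3 members passed, it was 0.41 and did not pass with slide as a random block (adjusted p = 0.136), and without single pigs it was 0.35 to 0.48, with 1 to 2 members passing. FBP1 turned to 0.68 (percentile of the median signal), 0.71 (percentile of the processed signal) and 0.13 (each tissue on its own). With all probes, 47.8% of calls had liver higher as reported, 67.8% with the percentile of the median signal and 37.9% with each tissue on its own. In liver over muscle these shares were 50.4%, 37.6% and 84.5%, and in kidney over muscle 53.1%, 29.6% and 88.3%. The median of all probes moved to -0.25 and 0.69 in liver over muscle and to -0.60 and 0.90 in kidney over muscle.

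For the lines, PC in liver turned to 0.016 with slide as a random block, 0.11 with slide as a fixed block and 0.45 within the slide of males, and ranged from -0.19 to 0.076 without single pigs. FBP1 in kidney turned to 0.11 (processed signal), 0.045 (percentile), 0.0052 (normalized over all arrays) and 0.060 (without the dim arrays), and ranged from -0.071 to 0.046 without single pigs. PC in kidney turned to -0.081 without the dim arrays, and the line difference of PC in liver minus kidney to 0.045. Without single pigs, FBP1 in muscle ranged from -0.29 to -0.067 and SLC2A2 in kidney from -0.0027 to 0.31.

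Replicate numbers in the labels do not pair the pigs: same-numbered pigs of the lines correlated over 0.1 in 6 of 8 pairs in liver, 3 of 8 in kidney and 2 of 8 in muscle. In no tissue did every pig correlate best with its own number (3, 0 and 3 of 8 pairs). With the replicate block the calls were 22, 0 and 51 probes, FBP1 in liver was 0.18 and no member passed.

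Array-wide calls between lines were 27, 4 and 197. They were 9, 2 and 165 with the percentile, 46, 9 and 505 blocked by number series, 20, 1 and 5 with slide as a random block, 16, 2 and 99 among probes well above background on all arrays, and 11, 5 and 126 by the methods' t-test with adjusted p. Muscle had 131 without the filter, liver 118 with slide as a fixed block and kidney 7 without the dim arrays. Without single pigs the counts were 13 to 40, 4 to 6 and 88 to 196. F2 E was higher in 59.3% of the liver calls, 66.7% with the percentile and 46.2% with processed signal, in 52.3% of the muscle calls, 68.5% with the percentile and 38.4% with processed signal, and in 1 of 4 kidney calls, 1 of 2 with the percentile. Between tissues the line difference called 9 and 4 probes against muscle with the percentile, and 12 and 36 probes (liver and muscle against kidney) without the dim arrays.

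Among correlations, PC with FBP1 passed in liver with line means (0.71) and slide means (0.75) subtracted, and with line and series means subtracted by r (0.73) and not by rho (0.72), and in kidney with percentile (0.89) and processed signal (0.83), turning to -0.39 in F2 E, -0.20 in the upper series and -0.37 without the 2 farthest pigs. PC with SLC2A2 turned to -0.036 in liver in the lower series, and in kidney to -0.0065 with processed signal and -0.15 with line and series means or slide means subtracted. FBP1 with SLC2A2 passed in kidney without pigs E1 and E3 by rho (0.67) and not by r (0.61), and turned to -0.20 in kidney with processed signal, and in liver to 0.17 (percentile), 0.076 (line means), 0.11 (line and series means), 0.14 (slide means), 0.18 (F2 C), 0.36 (upper series) and 0.10 (without the 2 farthest pigs). Liver against kidney, FBP1 turned to -0.022 (line means), -0.082 (line and series means), -0.23 (F2 E), -0.024 (lower series) and -0.029 (without the 2 farthest pigs). SLC2A2 passed at -0.82 in the lower series and turned to 0.27 (F2 C), 0.71 (upper series), 0.083 (without the 2 farthest pigs) and 0.12 (without pigs E1 and E3).

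Each member has 1 probe, so no others were searched.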
